A study of Mus musculus with 2 samples.

Results

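The cells described here were the microglia and macrophages of the embryonic mouse midline, 85 of 19630 cells whose RNA was read one by one from the corticoseptal boundary, the tissue where the corpus callosum forms. The study measured 1 library from WT embryos and 1 library from Tcf4f/f;Emx1Cre embryos (Tcf4_cKO), in which floxed Tcf4 alleles meet a Cre recombinase driven from Emx1, a gene of dorsal forebrain progenitors. Both libraries came from E16.5 embryos. How many embryos were pooled in each library is not given in the sources used here. Barcodes counted as cells above a fixed minimum of transcript molecules (unique molecular identifiers, UMIs), with 500 or more genes and no more than 10% of UMIs from mitochondrial genes. A cell was a member when it held at least 5 UMIs of C1qa, C1qb and C1qc together and at least 1 UMI of Csf1r. The WT library gave 46 members of 8964 cells, 0.513% (exact Clopper-Pearson 95% interval 0.376% to 0.684%), and the Tcf4_cKO library gave 39 of 10666, 0.366% (0.260% to 0.4995%), so that the 2 intervals overlapped. With 1 library of each genotype there is no replicate, hence no test. Every interval covers counting error only, and genotype cannot be told apart from embryo, dissection or library.

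Microglia are the resident phagocytes of the brain. They arise from yolk sac progenitors, enter the brain before neurons are made, and depend on the receptor CSF1R. Border macrophages of the meninges, choroid plexus and vessels share that receptor and are marked by Mrc1, Pf4, F13a1 and Lyve1. During late embryonic and early postnatal life a group of microglia with high Spp1, Gpnmb, Lgals3, Igf1 and lysosomal genes gathers in growing fibre tracts, the corpus callosum among them, and engulfs cells and debris. Microglia lie outside the lineage in which Emx1 drives Cre.

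Members held 607560 UMIs in WT and 474831 in Tcf4_cKO. Their median total per cell was 11449 UMIs in WT (range 3507 to 37240) and 10179 in Tcf4_cKO (4249 to 39399), against 9792.5 and 8304 in all other cells. The median mitochondrial share was 3.28% and 3.50%. The 2 libraries had 23 cell barcodes in common, and none of them was a member. A doublet caller marked 330 WT cells (3.68%) and 547 Tcf4_cKO cells (5.13%), among them 3 and 2 members. Levels are UMIs summed over the members of a library, divided by all their UMIs and expressed in CPM, counts per 1e6 UMIs. Ratios are Tcf4_cKO over WT and carry an exact conditional binomial 95% interval. A gene was called higher or lower when its log2 ratio, with 5 CPM added to both sides, passed 1.5-fold.

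The complement genes that chose the members were present in all of them. C1qa, C1qb and C1qc encode the chains of C1q, the start of the classical complement cascade, and lie side by side on chromosome 4 (mm10, minus strand), C1qb at chr4:136880129-136886187. Summed C1q counts per member ran from 10 through a median of 94.5 to 333 UMIs in WT and from 7 through 88 to 248 in Tcf4_cKO. Counts of Csf1r, the receptor for CSF1 and IL-34, ran from 1 through 13.5 to 26 in WT and from 1 through 11 to 41 in Tcf4_cKO. Just outside the limits, 7 WT and 5 Tcf4_cKO cells had 5 or more C1q UMIs but no Csf1r UMI, with 5 to 18 and 6 to 27 C1q UMIs. A further 28 and 20 cells had a Csf1r UMI with at most 1 and at most 4 C1q UMIs. Most other cells had none, 8791 in WT and 10504 in Tcf4_cKO being at 0 C1q UMIs. The values that chose the members are given as a description.

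The bases before the start of C1qb are shown because its UMIs helped choose the members. The sequence is from RefSeq (GRCm38.p6), chr4:136886201-136886450, minus strand, 5′ to 3′, with a match to CATGTG in capitals.
C1qb: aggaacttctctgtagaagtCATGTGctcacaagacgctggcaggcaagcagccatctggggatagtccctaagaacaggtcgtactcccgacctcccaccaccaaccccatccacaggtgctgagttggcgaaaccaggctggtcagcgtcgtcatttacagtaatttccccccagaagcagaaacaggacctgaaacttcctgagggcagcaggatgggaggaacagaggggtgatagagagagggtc
Both strands were searched for GAGGAAGT (the core of sites bound by PU.1, the factor that specifies macrophages), TGANTCA (AP-1), CATGTG (the M-box bound by MITF) and CACGTG (the core of the lysosomal CLEAR element). The last 2 are both E-boxes, and no match overlapped another in the windows shown. Of 32851 windows of 250 bases in the table, 2.44% held GAGGAAGT, 6.75% TGANTCA, 12.3% CATGTG and 6.02% CACGTG on either strand. The C1qb window held 1 match, to CATGTG, starting 230 bases before the start of transcription.

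Against all other cells, the genes that stood farthest above were those of mononuclear phagocytes. Of 6310 genes with at least 20 member UMIs, 1058 (16.8%) were at least 2-fold above other cells in both libraries. The 25 farthest above included Tyrobp and Fcer1g, the signalling adaptors of Trem2 and Fc receptors, the fractalkine receptor Cx3cr1, the protease Ctss, the chemokines Ccl3 and Ccl4, and Trem2, Aif1, Laptm5, Ly86, P2ry12, Gpr34 and Mpeg1. Cx3cr1 stood at 1397 CPM in WT members and 0.254 CPM in other WT cells, and at 1365 and 0.325 CPM in Tcf4_cKO. The stress-induced factors Atf3 and Zfp36 and the NF-κB target Cd83 were in the same list, Atf3 at 1713 CPM in WT and 1935 CPM in Tcf4_cKO members against 9.94 and 6.59 CPM in other cells. With every cell thinned to that same minimum of UMIs, Cx3cr1 was seen in 93.5% of WT and 89.7% of Tcf4_cKO members, and in 0.119% and 0.0497% of cortical neurons (2526 and 4022 cells with at least 5 Neurod2 and Neurod6 UMIs, median 10726.5 and 8631.5 UMIs before thinning).

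Markers of vessel cells, fibroblasts, monocytes and neutrophils were near 0 in most members, and those of neural and red cells were not all so. Of the 8 endothelial markers the members' sum was 14.8 CPM in WT and 4.21 CPM in Tcf4_cKO, and the pericyte and fibroblast lists summed to under 10 CPM in each. Of the monocyte and neutrophil markers only Ccr2 and Plac8 had UMIs, at 0 in WT and 24 in Tcf4_cKO, and 18 of these lay in 1 cell. That cell had 60 UMIs of Lyz2, 7 of C1q and none of the microglia genes. Neuron markers (24 genes) made up a median of 0.0213% of a WT member's UMIs and 0.0229% of a Tcf4_cKO member's, against 0.574% and 0.691% in other cells. In 3 members of each library they exceeded 0.5%, the highest at 1.17% in WT and 0.834% in Tcf4_cKO. The summed pan-neuronal markers had a median of 162 CPM in WT and 153 CPM in Tcf4_cKO members (other cells 3115 and 3495 CPM), and the astroglia and radial glia markers 188 and 166 CPM (908 and 907 CPM). The intermediate progenitor markers had medians of 1058 and 763 CPM, above the 295 and 293 CPM of other cells. Of these 8 genes the immediate early gene Btg2, at 877 and 687 CPM, held most UMIs, and Eomes, which defines intermediate progenitors, was at 34.6 and 2.11 CPM against 99.1 and 116 CPM in other cells. The radial glia gene Fabp7 had 258 UMIs in WT members and 44 in Tcf4_cKO members. Whether these molecules were engulfed, shared a droplet or came from free RNA was not tested.

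A set of 4 Tcf4_cKO members stood apart by haemoglobin RNA. It made up 8.62% to 15.3% of their UMIs, while no other member of either library exceeded 0.0620%. Hbb-bs, adult beta globin, had 389 to 882 UMIs in each of the 4. The red cell gene Alas2 had 2 UMIs over them. Hmox1, the enzyme that breaks down haem, stood at 4347 CPM in these 4 members and at 307 CPM in the other 35 of the library. The ferritin chains Ftl1 and Fth1 stood at 25967 and 15665 CPM there, against 11914 and 4727 CPM. Microglia genes were lower in them, Cx3cr1 at 169 against 1461 CPM and P2ry12 at 113 against 398 CPM, and all 7 macrophage genes had no UMI. The neuron genes Tubb3 and Stmn2 were found in all 4, at 1976 and 1581 CPM against 118 and 100 CPM in the other Tcf4_cKO members. A further 5 Tcf4_cKO cells and no WT cell held 1% to 50% haemoglobin and a C1q UMI without being members. Results that rest on these cells are given with and without them.

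**Figure D1:**
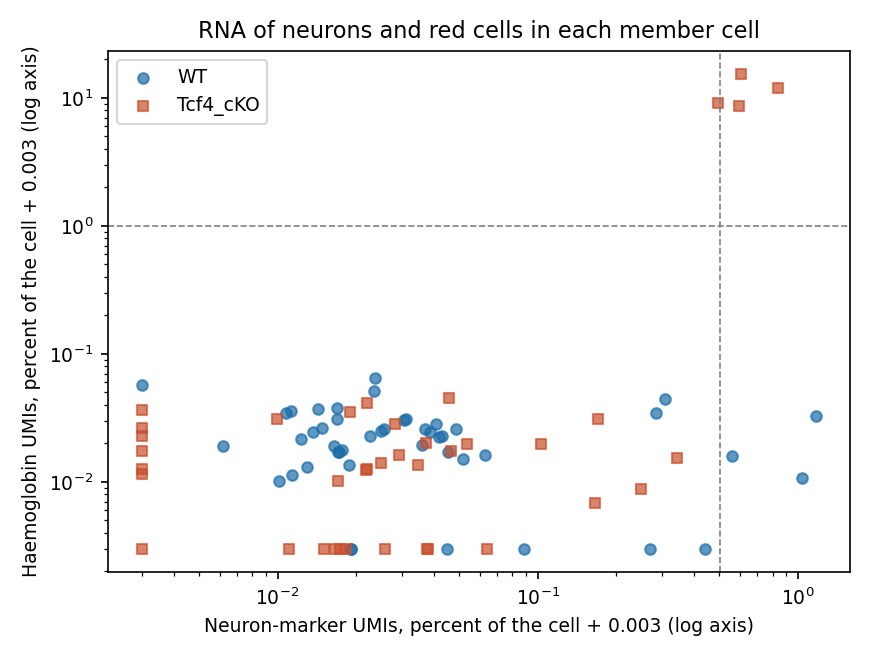
Each point is 1 member cell, with the percent of its UMIs from 24 neuron markers on the x axis and from haemoglobin genes on the y axis (log axes, 0.003 added). Circles are WT and squares Tcf4_cKO, and dashed lines mark 0.5% and 1%. The 4 squares at the top hold 8.62% to 15.3% haemoglobin, and 3 WT members lie right of the vertical line.

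Most members had the profile of microglia and a few that of border macrophages. They were split by 2 sums of UMIs, 8 microglia genes (P2ry12, Sall1, Tmem119, Siglech, Slc2a5, Cx3cr1, Gpr34 and Fcrls) and 7 macrophage genes (Mrc1, Pf4, F13a1, Lyve1, Ms4a7, Cbr2 and Cd163). A member was in the macrophage range with at least 5 macrophage UMIs and more of them than microglia UMIs. The range held 6 of 46 WT members, 13.04% (exact interval 4.94% to 26.3%), and 3 of 39 Tcf4_cKO members, 7.69% (1.62% to 20.9%). Macrophage sums in the 6 WT cells ran from 43 to 233 UMIs beside 13 to 42 microglia UMIs. Among the other WT members the macrophage sum had a median of 1 and a highest value of 18, beside a median microglia sum of 59.5. The 3 Tcf4_cKO cells had 225, 43 and 6 macrophage UMIs, the last being the cell with Ccr2 and Plac8. In each library 1 member lay within 3 UMIs of the limit. These 9 cells held 91.3% of the macrophage UMIs of WT members and 79.2% of those of Tcf4_cKO members.

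**Figure D2:**
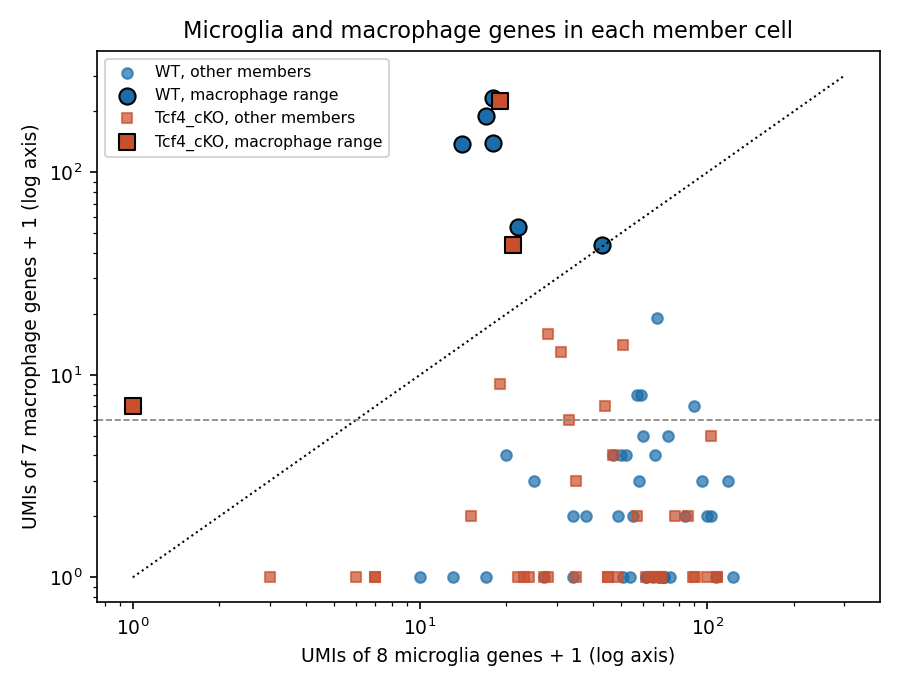
Each point is 1 member, by its UMIs of 8 microglia genes (x axis) and of 7 macrophage genes (y axis), with 1 added and log axes. The dotted line marks equal sums and the dashed line 5 macrophage UMIs, and outlined symbols are the 6 WT and 3 Tcf4_cKO cells of the macrophage range.

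The genes named here were picked, outside those of the split, for the largest differences with the same sign in both libraries, so that their agreement is set by the choice. Genes of the fixed lists did not all agree. Fcna stood at 535 CPM in the WT range against 11.0 CPM in the other WT members, but at 0 against 6.59 CPM in Tcf4_cKO, and Igf1 at 418 against 54.8 CPM but at 154 against 220 CPM. The endocytic adaptor Dab2 stood at 1639 CPM in the WT range against 63.9 CPM in the other WT members, and at 1491 against 119 CPM in Tcf4_cKO. The chemokines Ccl24, Ccl7, Ccl2 and Cxcl2 were higher in the range, Ccl7 at 1288 against 7.30 CPM in WT and 617 against 19.8 CPM in Tcf4_cKO. Cxcl2, a neutrophil attractant, stood at 4951 against 460 CPM and at 2622 against 242 CPM. Interferon-inducible Ifitm3, Ifitm2, Ifi207 and Ifi204, the NADPH oxidase chain Cybb and biliverdin reductase Blvrb were also among the 15 highest. The lowest 15 all had 0 UMIs in the range of both libraries. They included the matrix protein Sparc (946 CPM in the other WT members and 722 CPM in the other Tcf4_cKO members), Syngr1, Serpine2, Rgs1, Lair1, Spp1 and the mitotic genes Ube2c, Prc1, Cdca8, Nusap1 and Tpx2. Among transcription factors, Sall1, which keeps microglial identity, had 0 UMIs in the range of both libraries, and Maf stood at 1455 against 641 CPM in WT and 2005 against 608 CPM in Tcf4_cKO. With 9 cells, these values are descriptions of few cells.

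A share of the microglia were cycling. After thinning, 12 of 46 WT members, 26.1% (exact interval 14.3% to 41.1%), and 8 of 39 Tcf4_cKO members, 20.5% (9.30% to 36.5%), had a UMI of Mki67 or Top2a and at least 5 UMIs over the S phase and G2 and M phase lists. The same call marked 6.89% of WT and 5.97% of Tcf4_cKO cells of the cortical neuron set, taken for comparison. That set was not free of progenitor genes, with Eomes seen in 27.7% and 30.2% of its cells after thinning. Without thinning the shares were 34.8% and 25.6% in members and 13.6% and 10.9% in neurons. With called doublets left out and cells thinned, 9 of 43 WT members (20.9%) and 6 of 37 Tcf4_cKO members (16.2%) were cycling. No WT and 1 Tcf4_cKO cycling member lay in the macrophage range. Cycling members were deeper than the others before thinning, with median totals of 14675.5 against 9866 UMIs in WT and 18539.5 against 8234 UMIs in Tcf4_cKO. The intervals of the 2 libraries overlapped.

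Tcf4, the targeted gene, encodes an E protein, a helix-loop-helix factor that binds E-boxes. It stood at 364 CPM in WT members (exact Poisson interval 317 to 415) and at 232 CPM in Tcf4_cKO members (190 to 279), a ratio of 0.637 (0.502 to 0.804). Other cells stood at 1515 and 1149 CPM. Per cell, Tcf4 ran from 0 through a median of 167 to 2364 CPM in WT members and from 0 through 131 to 621 CPM in Tcf4_cKO members, so the cells overlapped. After thinning, 52.2% of WT and 35.9% of Tcf4_cKO members had a Tcf4 UMI, against 99.6% and 98.7% of neurons. The libraries tag the 3′ end of transcripts and the floxed exon is not given in the sources used here, so the level does not check the deletion. Other E proteins were low, Tcf12 at 66 and 48 CPM and Tcf3 at 48 and 42 CPM. The myeloid partner Lyl1 stood at 41.1 and 23.2 CPM and its cofactor Lmo2 at 122 and 194 CPM, a ratio of 1.59 (1.16 to 2.19). Id2, an inhibitor of E proteins, stood at 235 and 230 CPM in members and at 267 and 105 CPM in other cells. Of its 109 Tcf4_cKO UMIs, 52 lay in the 5 members with 30 or more Spp1 UMIs, and without such members Id2 stood at 246 and 146 CPM (0.592, 0.427 to 0.810).

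Between the libraries, 416 of 6310 genes (6.59%) were higher and 912 (14.5%) lower in Tcf4_cKO members. The split between higher and lower depended on the scaling. The median log2 ratio of all genes tested was -0.08, and with ratios centred on it 544 genes were higher and 678 lower. In 180 of the higher and 396 of the lower genes the interval excluded 1. In the far deeper sums of all other cells, 0.252% of 17484 genes were higher and 0.383% lower. The lists below are read against these shares, and those of axon tract and phagocytic microglia, of lipid handling and of haem and iron handling had the largest shares of higher genes in all members. The haem and iron list did not keep that place without the members carrying RNA of other cells, where 2 of its 12 genes were higher and 2 lower.

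**Figure D3:**
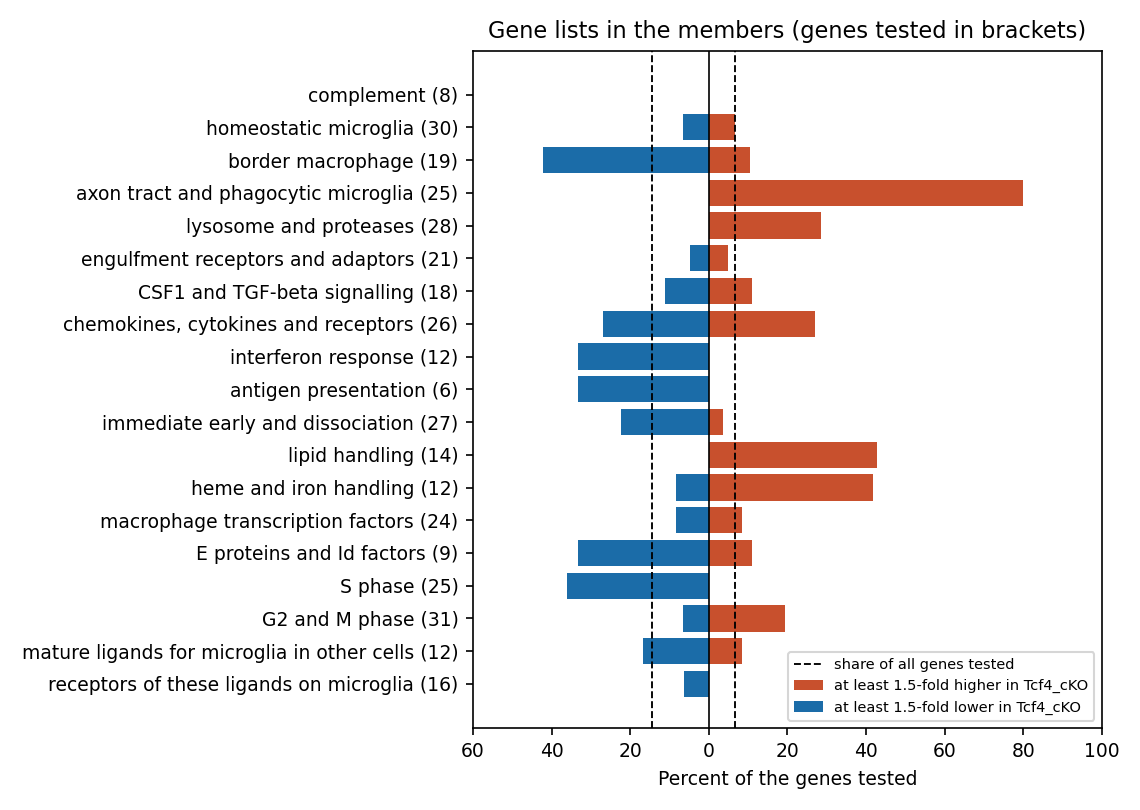
Bars give, for each gene list, the percent of its genes tested that were at least 1.5-fold higher (right) or lower (left) in Tcf4_cKO than in WT members. Dashed lines mark the share of all 6310 genes, 6.59% higher and 14.5% lower, and the number of genes tested is in brackets.

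The levels of C1qa, C1qb, C1qc and Csf1r, which chose the members, are given as a description only. None of the 8 tested complement genes passed 1.5-fold (median log2 ratio 0.08). C1qb had 2945 CPM in WT against 3157 CPM in Tcf4_cKO, a ratio of 1.07 (1.00 to 1.15), C1qa at 2452 and 2614 CPM, and C1qc at 2125 and 2376 CPM. The complement receptor C3ar1 stood at 351 and 474 CPM, a ratio of 1.35 (1.12 to 1.64). Of 30 homeostatic microglia genes, 2 were higher and 2 lower, with a median log2 ratio of -0.08. Csf1r (996 and 960 CPM), Cx3cr1, Fcrls (1277 and 1192 CPM) and Ctss had ratios between 0.93 and 1.03. The purinergic receptor P2ry12 was lower, 573 CPM in WT and 377 CPM in Tcf4_cKO, a ratio of 0.658 (0.547 to 0.790). Per cell it ran from 0 through 573 to 2785 CPM in WT and from 0 through 322 to 1311 CPM in Tcf4_cKO. Tmem119 stood at 132 and 86.3 CPM and Siglech at 255 and 183 CPM, neither past 1.5-fold with 5 CPM added. For Tmem119 that addition decided the call, as its CPM alone were past 1.5-fold apart. Lpcat2 was the other lower gene, at 202 and 128 CPM. Neither passed 1.5-fold without members of 30 or more Spp1 UMIs, where P2ry12 had a ratio of 0.755 (0.624 to 0.911) and Lpcat2 of 0.682 (0.486 to 0.946), nor without the member with most of its UMIs in each library. The higher genes were Tyrobp, at 1806 and 2759 CPM (1.53, 1.41 to 1.66), and the receptor Csf3r, at 23.0 and 46.3 CPM with an interval of 0.984 to 4.25. Without members of 30 or more Spp1 UMIs, Tyrobp had a ratio of 1.35 (1.23 to 1.47), short of 1.5-fold. Csf3r stayed past it, at 1.72 (0.739 to 4.07).

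The genes of axon tract and phagocytic microglia were higher in Tcf4_cKO as a group. Of 25 tested, 20 were higher and none lower, with a median log2 ratio of 0.86. Spp1, the secreted matrix protein osteopontin (chr5:104435118-104441050, mm10), stood at 119 CPM in WT (92.7 to 149) and 2651 CPM in Tcf4_cKO (2507 to 2802), a ratio of 22.4 (17.6 to 28.8). Gpnmb, a membrane glycoprotein of phagocytes, had 0 UMIs in WT and 68 in Tcf4_cKO, at least 29.0-fold higher against a floor of 3 UMIs over the WT members, with an exact lower bound of 22.95. Lgals3, the sugar-binding galectin-3, stood at 28.0 and 282 CPM, a ratio of 10.1 (6.07 to 17.8). Fabp5, a fatty acid carrier, stood at 444 and 1546 CPM (3.48, 3.02 to 4.01), and the tetraspanins Cd9 at 326 and 802 CPM and Cd63 at 448 and 882 CPM. The growth factors Igf1 (90.5 and 217 CPM) and Csf1 (109 and 263 CPM) and lipoprotein lipase Lpl (158 and 360 CPM) had ratios of 2.40, 2.42 and 2.28. Apoe, which carries cholesterol and other lipids, stood at 8784 and 11977 CPM, a ratio of 1.36 (1.31 to 1.42), short of 1.5-fold. In other cells Spp1 stood at 0.162 and 0.345 CPM, while Fabp5 stood at 1009 and 975 CPM. After thinning, Fabp5 was seen in 98.1% of WT and 95.8% of Tcf4_cKO cortical neurons, and in 39.1% and 64.1% of members.

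The upstream 250 bases of both leading genes are shown because the cell richest in Spp1 also held most Gpnmb molecules (RefSeq, GRCm38.p6, plus strand, 5′ to 3′, Spp1 from chr5:104434861-104435110 and Gpnmb from chr6:49036268-49036517). Capitals mark the match to GAGGAAGT.
Spp1: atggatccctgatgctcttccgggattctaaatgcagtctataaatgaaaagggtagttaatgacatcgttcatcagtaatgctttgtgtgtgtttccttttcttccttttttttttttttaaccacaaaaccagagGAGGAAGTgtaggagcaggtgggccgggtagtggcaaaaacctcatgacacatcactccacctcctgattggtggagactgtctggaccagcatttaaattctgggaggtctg
Gpnmb: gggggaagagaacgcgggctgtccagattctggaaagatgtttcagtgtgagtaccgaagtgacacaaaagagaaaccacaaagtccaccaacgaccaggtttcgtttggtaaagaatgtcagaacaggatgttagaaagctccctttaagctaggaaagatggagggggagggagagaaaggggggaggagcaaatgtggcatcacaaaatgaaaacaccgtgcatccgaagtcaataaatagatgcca
The Spp1 window held 1 match, to GAGGAAGT, starting 113 bases before the start of transcription, and the Gpnmb window held none of the 4 motifs. A match is a description of letters, and no binding was measured.

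The Spp1 molecules lay in few cells. In Tcf4_cKO 12 of 39 members had a Spp1 UMI, and 5 of them, with 636, 392, 102, 70 and 37 UMIs, held 98.3% of the 1259. In WT 10 of 46 had one, and 1 member with 35 UMIs held 48.6% of the 72. The median member of both libraries had none. After thinning, 15.2% of WT and 23.1% of Tcf4_cKO members had a Spp1 UMI. The 5 Tcf4_cKO cells had 10462 to 26313 UMIs in all, 14 to 68 microglia UMIs, at most 13 macrophage UMIs and at most 0.163% neuron and 0.00956% haemoglobin UMIs. The cell with 636 Spp1 UMIs also held 62 of the 68 Gpnmb UMIs, 104 of the 134 Lgals3 UMIs, 210 of Fabp5 and 127 of Lyz2. The cell with 102 held the other 6 of Gpnmb, 12 of Lgals3 and 162 of Fabp5. In the cell with 392 neither Gpnmb nor Lgals3 had a UMI. So the cells richest in Spp1 differed among themselves in these partners.

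**Figure D4:**
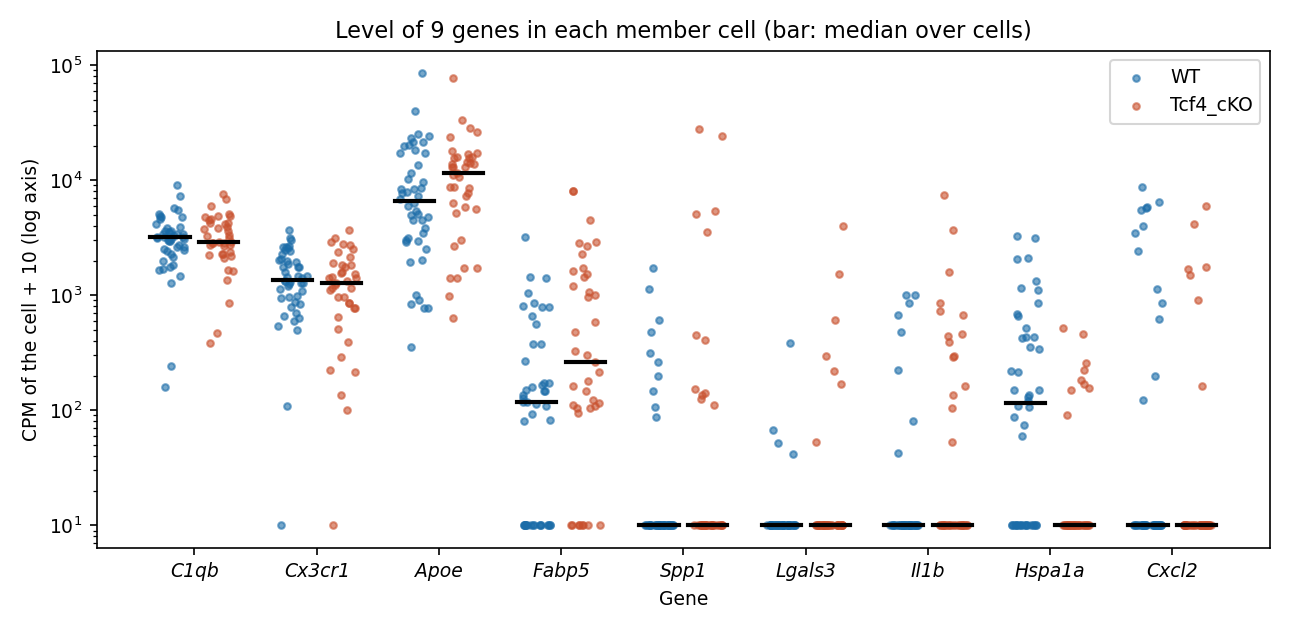
Each point is the CPM of 1 member for 9 genes (log axis, 10 CPM added), WT in blue and Tcf4_cKO in orange, with a bar at the median. The medians of C1qb and Cx3cr1 lie close, the orange medians of Apoe and Fabp5 lie above the blue ones, and the high Spp1, Lgals3 and Il1b values are single cells.

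The size of the group difference rested on those cells. With members of 30 or more Spp1 UMIs left out of both libraries, a rule chosen after their values were seen, 8 of the 25 axon tract genes were higher and none lower, and the median log2 ratio was 0.34. Spp1 itself then had 64.2 CPM in WT against 56.3 CPM in Tcf4_cKO, a ratio of 0.877 (0.493 to 1.53). Gpnmb had no UMI, Lpl had a ratio of 0.898 (0.632 to 1.27) and Cd9 of 1.15 (0.918 to 1.43). Igf1 had a ratio of 1.29 (0.855 to 1.93) and Csf1 of 1.15 (0.773 to 1.69). The 8 that stayed past 1.5-fold were Fabp5, at 455 and 763 CPM (1.68, 1.42 to 1.99), Cd63 (1.60, 1.34 to 1.90), Cd68 (1.56, 1.19 to 2.05), Hmox1 (1.80, 1.48 to 2.19), Lgals3, Anxa5 (1.75, 1.11 to 2.76), Pld3 (1.82, 1.05 to 3.17) and Gas2l3 (4.06, 1.74 to 10.5). The interval of Lgals3 (1.66, 0.799 to 3.48) included 1, and Hmox1 had a ratio of 0.841 in members free of haemoglobin, neuron and monocyte RNA. Leaving out only the member with most UMIs of each gene from each library gave 20 of 25 higher. Leaving out the members with haemoglobin, neuron or monocyte RNA gave 18 higher and a median of 0.88, where 7.37% of all genes tested were higher and 14.1% lower.

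**Figure D5:**
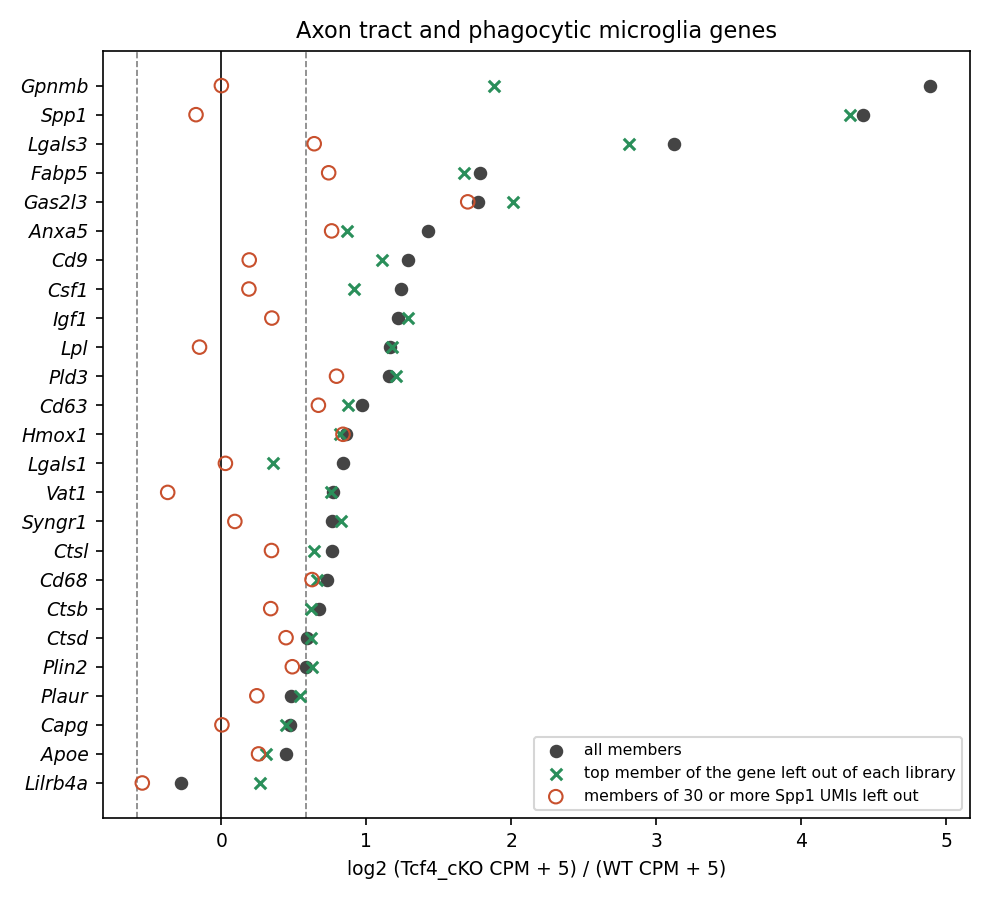
Points give the log2 ratio of Tcf4_cKO to WT members (5 CPM added) for the 25 tested genes of the axon tract list, in all members, without the top member of each gene, and without members of 30 or more Spp1 UMIs. Dashed lines mark 1.5-fold. The open circles lie left of the filled ones for most genes, and Spp1, Gpnmb and Lpl move to 0 or below.

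Within Tcf4_cKO the 5 cells with 30 or more Spp1 UMIs and the other 34 members can be set side by side, as a description of cells chosen by Spp1. Apoe stood at 19727 and 10309 CPM, Ctsb at 6183 and 2429 CPM, and Tyrobp at 4257 and 2436 CPM. P2ry12 stood at 95.1 and 438 CPM and Csf1r at 618 and 1034 CPM, while Tmem119 had no UMI in the 5 cells. The 3 C1q genes differed little, C1qb at 3115 and 3166 CPM.

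Part of the lysosomal and lipid genes were higher in Tcf4_cKO, and several of them are also in the axon tract list. Of 28 lysosome and protease genes, 8 were higher and none lower (median log2 ratio 0.30), and without members of 30 or more Spp1 UMIs 4 were. The cathepsins Ctsb (1939 and 3094 CPM), Ctsd (2818 and 4239 CPM), Ctsl (951 and 1617 CPM) and Ctsz (887 and 1419 CPM) had ratios of 1.60, 1.504, 1.70 and 1.60. Without members of 30 or more Spp1 UMIs their ratios were 1.27, 1.36, 1.27 and 1.28, all short of 1.5-fold. The sialidase Neu1 (37.9 and 82.1 CPM) and the acid lipase Lipa (90.5 and 162 CPM) had ratios of 1.99 and 1.68 without those cells. Ctss, Lgmn and Lamp2 had ratios of 1.03 to 1.05. Of 14 lipid handling genes 6 were higher and none lower. Apoc1, an apolipoprotein, had 32.9 CPM in WT against 356 CPM in Tcf4_cKO, a ratio of 10.8 (6.78 to 18.2), and of 7.46 (4.46 to 13.1) without members of 30 or more Spp1 UMIs. It was seen in 15.2% of WT and 35.9% of Tcf4_cKO members after thinning. The cholesterol exporters Abca1 (384 and 396 CPM) and Abcg1 (82.3 and 110 CPM) did not pass 1.5-fold.

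Of 12 haem and iron genes 5 were higher and 1 lower, and without members carrying haemoglobin, neuron or monocyte RNA 2 were higher and 2 lower. Ftl1 stood at 7644 and 12962 CPM, with cells from 2003 through 6925 to 18178 CPM in WT and from 1892 through 11088 to 34880 CPM in Tcf4_cKO. Fth1 stood at 3075 and 5543 CPM. Their ratios were 1.70 (1.63 to 1.76) and 1.80 (1.70 to 1.91) in all members, and 1.51 and 1.49 without members carrying haemoglobin, neuron or monocyte RNA. Hmox1 stood at 332 and 609 CPM, and its ratio of 1.83 became 0.841 without those members. The biliverdin reductase Blvra stood at 44.4 and 99.0 CPM (2.23, 1.36 to 3.72). The haemoglobin receptor Cd163, a macrophage gene, was lower, at 31.3 and 8.42 CPM.

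Among immediate early and dissociation genes, several heat shock and NF-κB feedback genes were lower in Tcf4_cKO, while most of the list was not past 1.5-fold. Of 27 immediate early and dissociation genes, 6 were lower and 1 higher (median log2 ratio -0.19), and Fos (2750 and 2407 CPM), Jun (3201 and 2468 CPM), Egr1 and Klf2 did not pass 1.5-fold. The inducible HSP70 genes Hspa1a (347 and 59.0 CPM) and Hspa1b (235 and 23.2 CPM), near-identical copies whose reads are hard to assign, stood 5.89-fold (3.96 to 9.08) and 10.2-fold lower. Hspa1a ran from 0 through a median of 105 to 3239 CPM in WT cells and from 0 through 0 to 509 CPM in Tcf4_cKO cells. In other cells it stood at 2.48 and 1.31 CPM. The co-chaperone Dnajb1 stood at 337 and 114 CPM and the chaperone Hsp90aa1 at 1330 and 678 CPM. Nfkbia, the NF-κB inhibitor, had 1211 CPM in WT against 482 CPM in Tcf4_cKO, a ratio of 0.398 (0.342 to 0.462), with cell medians of 979 and 272 CPM. Nfkbiz (619 and 293 CPM) and Tnfaip3 (222 and 101 CPM), both feedback genes of that pathway, were lower too. The tissue was digested for both libraries by the same protocol, and the time each sample waited is not given in the sources used here.

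Among 26 chemokines, cytokines and receptors, 7 were higher and 7 lower. The 7 higher included the chemokines Ccl3 (1001 and 1615 CPM), Ccl6 (57.6 and 202 CPM) and Ccl9 (60.9 and 141 CPM). Il1b, the secreted interleukin-1 beta, stood at 65.8 and 484 CPM, a ratio of 7.36 (5.24 to 10.6). It had UMIs in 8 WT and 15 Tcf4_cKO members, and 2 Tcf4_cKO cells with 108 and 64 UMIs held most of its 230. Its partner Il1a went the other way, at 219 and 69.5 CPM (0.317, 0.210 to 0.468). Tnf stood at 250 and 145 CPM and was seen in 30 of 46 and 15 of 39 members. Cxcl2 stood at 902 and 339 CPM and Ccl7 at 133 and 44.2 CPM. Cxcl1 had 26 UMIs in 4 WT cells, all of the macrophage range, and none in Tcf4_cKO. It stood 6.77-fold lower against a floor of 3 UMIs over the Tcf4_cKO members, a value set by that floor and not an exact bound. Without members of 30 or more Spp1 UMIs, the exact upper bound of its ratio was 0.225. In WT 77 of 81 Ccl7 UMIs and 296 of 548 Cxcl2 UMIs lay in the macrophage range, and in Tcf4_cKO 51 of 161 Cxcl2 UMIs. Without the range 3 of the list were lower, and Cxcl2 still stood at 460 and 242 CPM. Of 12 interferon genes 4 were lower, among them Isg15 at 51.0 and 4.21 CPM in 3 and 1 cells, Cxcl10 at 65.8 and 27.4 CPM, and Ifi27l2a.

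Border macrophage genes were lower in Tcf4_cKO, where 3 members lay in the macrophage range against 6 in WT. Of 19 tested, 8 were lower and 2 higher, and without the macrophage-range cells 0 were lower. Mrc1, the mannose receptor, stood at 301 and 164 CPM, F13a1 at 216 and 50.5 CPM, Lyve1 at 93.8 and 16.8 CPM and Pf4 at 691 and 434 CPM. Pf4 had UMIs in 7 WT and 4 Tcf4_cKO members, and 1 Tcf4_cKO cell held 83.5% of them. Mrc1 had UMIs in 27 WT and 13 Tcf4_cKO members, more than were in the range. The genes higher were Lyz2 (316 and 804 CPM) and Igf1. Lyz2, lysozyme, had a ratio of 2.55 (2.13 to 3.04), and of 2.17 without the members carrying RNA of other cells, among them the cell with Ccr2 and Plac8. The Tcf4_cKO cell richest in Spp1, which also held many Lyz2 UMIs, is counted in both ratios.

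Receptors and factors of the lineage mostly kept their level. Of 18 CSF1 and TGF-beta genes 2 were higher, Csf1 and Csf3r, and 2 were lower, Inpp5d (143 and 92.7 CPM) and Smad4 (75.7 and 46.3 CPM). Tgfb1 stood at 168 and 116 CPM, Tgfbr1 at 178 and 196 CPM and Tgfbr2 at 62.5 and 73.7 CPM. Of 21 engulfment genes 1 was higher and 1 lower, Tyrobp and Fcgr2b. Trem2, the lipid receptor that signals through Tyrobp, stood at 746 and 979 CPM (1.31, 1.15 to 1.498), Mertk at 80.7 and 71.6 CPM and Axl at 26.3 and 37.9 CPM. Of 24 macrophage transcription factors 2 were higher and 2 lower. Among the higher was Mitf, a regulator of lysosomal genes, at 13.2 and 44.2 CPM (3.36, 1.43 to 8.77). The lower were Batf3 and Lyl1. Spi1, which encodes PU.1, stood at 351 and 301 CPM, Irf8 at 193 and 217 CPM, Sall1 at 95.5 and 141 CPM and Runx1 at 230 and 173 CPM.

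Cell cycle genes differed by phase. Of 25 S phase genes 9 were lower and none higher (median log2 ratio -0.35), among them Mcm6 (90.5 and 44.2 CPM), Rrm2 (102 and 46.3 CPM) and Tyms (74.1 and 33.7 CPM). Of 31 G2 and M phase genes 6 were higher and 2 lower (median 0.32), among the higher Kif11 (37.9 and 84.2 CPM) and Ccnb1 (34.6 and 84.2 CPM). A single Tcf4_cKO member of 39399 UMIs, called a doublet, held 66 of the 128 Top2a UMIs. Without called doublets 1 G2 and M phase gene was higher, and with each member weighted equally also 1. After thinning no S phase gene was lower, but only 2192 of 6310 genes then kept at least 20 UMIs. List genes below that limit were not called, so the fall does not show that the difference was gone.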

How the data were processed

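The authors deposited raw UMI counts per gene and barcode, 1 matrix per library, which Cell Ranger 7.1.0 wrote, per the file headers. An earlier release, Cell Ranger 2.1.1, and the build mm10 are given in the submitters' processing notes. The annotation release and the use of intronic reads are not given in the sources used here. Members and gene lists were chosen with earlier results of these data known. Counts were summed over members, scaled to CPM and compared for genes of at least 20 member UMIs, with exact 95% intervals (SciPy 1.17.1). Total counts per library were 116998498 and 121321247 UMIs. The coverage of the ratio intervals and the direction of ratios were checked on simulated Poisson counts. The simulation had no spread between cells, so it does not cover genes whose UMIs lie in few cells. The 1.5-fold call was not checked. Doublets were called with Scrublet in Scanpy 1.11.5 at an expected rate of 6% and kept in the members. Named genes were those of the lists. Beside them were the 15 highest and 15 lowest between libraries, by the interval bound nearest 1, with at least 50 UMIs, 50 CPM and a level no lower than in other cells and free RNA. The 25 farthest above other cells, and the 15 each way in the macrophage range, completed them. Alternatives changed the member limits, thinning, scaling, pseudocount and minimum count. Leaving out members by haemoglobin, other RNA or Spp1, or the top member of each gene, was chosen after seeing the data. Promoter windows came from RefSeq, GRCm38.p6.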

Additional observations from a re-analysis of the deposited data

How the results depend on the processing

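No paired analysis was possible because each genotype had 1 library. The share of members, the macrophage-range and cycling shares and the log2 ratio of Tcf4 (-0.64) stayed within their counting intervals under each alternative run. The 416 genes higher and 912 lower in Tcf4_cKO became 223 and 318 with cells thinned to equal depth, 142 and 277 among genes of at least 50 UMIs, and 1199 and 2677 among genes of at least 1 UMI, since each sets how many low counts are tested. Without members of 30 or more Spp1 UMIs, 8 axon tract genes in place of 20 and 4 lysosome genes in place of 8 were higher, and 18 G2 and M phase genes in place of 6. The log2 ratios were then 0 for Gpnmb, -0.17 for Spp1 and -0.15 for Lpl. Without macrophage-range cells they were 0.53 for F13a1, 1.01 for Ccl7, 1.93 for Ms4a7 and 0 for Cxcl1. Hmox1 had -0.11 without members of over 1% haemoglobin and -0.25 without members carrying RNA of other cells. After thinning, Pf4 had 0.053 and Ccnb1 -0.16, 4 border macrophage genes were lower in place of 8, and 0 S phase genes in place of 9. Only 2192 of 6310 genes kept at least 20 UMIs after thinning, and list genes below that were not called. Beyond what leaving out those cells or counts itself removes, the cause was not tested. Of 1425 values of 75 genes under alternatives, 1306 stayed within the interval of the value given, 108 moved outside it and 11 reversed. Depth limits genes of few UMIs, and 46 and 39 cells limit any share.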

Other observations

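Of 13 antigen presentation genes, 6 had at least 20 UMIs over the members of both libraries, and 2 of these were lower in Tcf4_cKO, against 14.5% of all genes tested. The class I gene H2-K1 had 217 CPM in WT against 135 CPM in Tcf4_cKO (ratio 0.620, 0.453 to 0.842), and the class II invariant chain Cd74 at 37.9 and 14.7 CPM. B2m, the class I light chain, stood at 769 and 823 CPM. H2-Aa, H2-Eb1, Ciita and Cd40 had no UMI in either library.

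Ligands that act on microglia were followed in the other cells of each library. Cx3cl1, the ligand of Cx3cr1, had 2.32 CPM in WT against 2.82 CPM in Tcf4_cKO, and Csf1 at 6.09 and 5.81 CPM. Il34, the other ligand of Csf1r, had 38 and 27 UMIs in all other cells. Tgfb2 stood at 77.7 and 43.9 CPM, a ratio of 0.564 (0.544 to 0.586), and Apoe at 446 and 316 CPM, a ratio of 0.708 (0.697 to 0.718). These other cells pool all types, and their make-up differed. The cortical neuron set held 2526 cells beside 8918 other cells in WT, and 4022 beside 10627 in Tcf4_cKO. Whether a ligand differed within 1 cell type was not tested. In the members Csf1 stood at 109 and 263 CPM and Tgfb1 at 168 and 116 CPM, and Tgfb1 in other cells at 1.78 and 1.97 CPM. Of the Csf1 UMIs of Tcf4_cKO members, 76 lay in the 5 members with 30 or more Spp1 UMIs and 49 in the others. Without such members in both libraries Csf1 had a ratio of 1.15 (0.773 to 1.69). After thinning, 21.7% of WT and 12.8% of Tcf4_cKO members had a Csf1 UMI.

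BC004004 differed between the libraries in other cells as well as in members. It stood at 39.5 CPM in WT members and 217 CPM in Tcf4_cKO members (ratio 5.49, 3.49 to 8.96), and at 32.9 and 166 CPM in other cells. It was found in 16 of 46 WT and 37 of 39 Tcf4_cKO members.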
